A study of Homo sapiens with 3 samples.

Results

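The 32 genes described here encode enzymes of cholesterol synthesis, enzymes of fatty acid synthesis and the SREBP regulators of both, out of 29689 gene symbols with a deposited value. They were taken by name from a list, itself chosen with earlier results of these data known. All 32 had a value above 0 in every tumor. They fell into a sterol branch of 15 genes, a fatty acid branch of 11 genes and a group of 6 with the regulators SREBF1, SREBF2, SCAP, INSIG1 and INSIG2 and the sterol carrier STARD4. The values came from 3 xenograft tumors of SUM-149, a triple-negative breast cancer cell line, grown from cells placed with Matrigel in the mammary fat pads of female Nu/Nu mice, which lack T cells. A single library came from a vehicle control tumor, and the others from tumors treated for 10 days with the CDK2 inhibitor dinaciclib (CDK2i) or the EZH2 inhibitor EPZ6438 (EZH2i). Dinaciclib also blocks other cyclin-dependent kinases, and EPZ6438 blocks the histone methyltransferase EZH2. The labels give neither doses nor the age of the mice, and a legend of the study names another EZH2i, GSK343, for SUM-149 xenografts, so the agent is named here as in the labels. With 1 library per group there was no replicate error, and no p-value was computed.

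Cholesterol and fatty acids are both built from acetyl-CoA in the cytosol and the endoplasmic reticulum membrane. The SREBP transcription factors are held in that membrane by SCAP and the INSIG proteins while sterols are plentiful. When sterols run low, SCAP carries SREBP to the Golgi, where proteases release the active factor. SREBP1, from SREBF1, is known mainly for fatty acid genes and SREBP2, from SREBF2, for sterol genes and for uptake of cholesterol-rich lipoproteins. Carcinomas often make their own fatty acids even where these are supplied by the blood.

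The libraries held 16.8 (vehicle), 19.1 (CDK2i) and 17.5 (EZH2i) M fragments, M being 1000000, as recovered from the steps of the lowest values. Of the summed FPKM (fragments per kilobase of gene per M fragments), ribosomal protein genes took 15.5% in the vehicle tumor, 8.74% under CDK2i and 8.37% under EZH2i. All 8 epithelial markers were above the expression minimum in each tumor, and KRT5, KRT6A, KRT14 and KRT17 were higher in CDK2i than in vehicle by 1.17 to 1.35 on the log2 scale. The 7 adipocyte markers with a value summed to 38.1 FPKM in vehicle, 24.1 under CDK2i and 7.08 under EZH2i, of which FABP4 made up 32.6, 18.6 and 3.03, while ADIPOQ was listed at 0 in vehicle and EZH2i. The 5 macrophage markers with a value summed to 0.751 to 1.12 FPKM, the 6 endothelial markers to 0.791 to 0.988 and the 9 fibroblast markers to 25 to 39.2. Of the last, COL1A1 made up 13.0 FPKM in vehicle, 25.1 under CDK2i and 16.1 under EZH2i. LUM was at 4.53, 9.19 and 6.95 FPKM, higher in CDK2i by 1.02 and so past both limits of the calls below. COL1A2, PDGFRA and PDGFRB were at 0.723 FPKM or less, and THY1 was listed at 0 throughout. In bulk tumors, fewer cells of a type and less RNA per cell cannot be told apart. How fragments from the mouse host were treated is not given in the sources used here.

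In the vehicle tumor, 23 of the 32 genes were above log2 FPKM 3, the minimum set with the calls below, and 21 in CDK2i and 25 in EZH2i were. SREBF1 had the highest level of the 32 in vehicle at 143 FPKM, ahead of SCD at 107 and FASN at 93.3. SCD inserts the double bond that turns saturated into monounsaturated fatty acids, and FASN assembles palmitate. The same 3 genes led in both treated tumors, at 228 FPKM for SCD, 216 for SREBF1 and 211 for FASN in CDK2i, and at 151 for FASN, 140 for SCD and 87.0 for SREBF1 in EZH2i. In the sterol branch the late enzyme DHCR7, which makes cholesterol from its direct precursor, stood at 66.9 FPKM in vehicle and MVD, the mevalonate diphosphate decarboxylase, at 62.5. The lowest level in all 3 tumors belonged to CYP51A1, the lanosterol demethylase, with 1.17 FPKM in vehicle, 1.37 under CDK2i and 1.07 under EZH2i, which stand for only 59 to 83 fragments by the length of its main transcript. CYP51A1 shares exonic bases with AKAP9 on the opposite strand and has 3 named pseudogenes, and whether the counting used strand is not given in the sources used here.

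**Figure D1:**
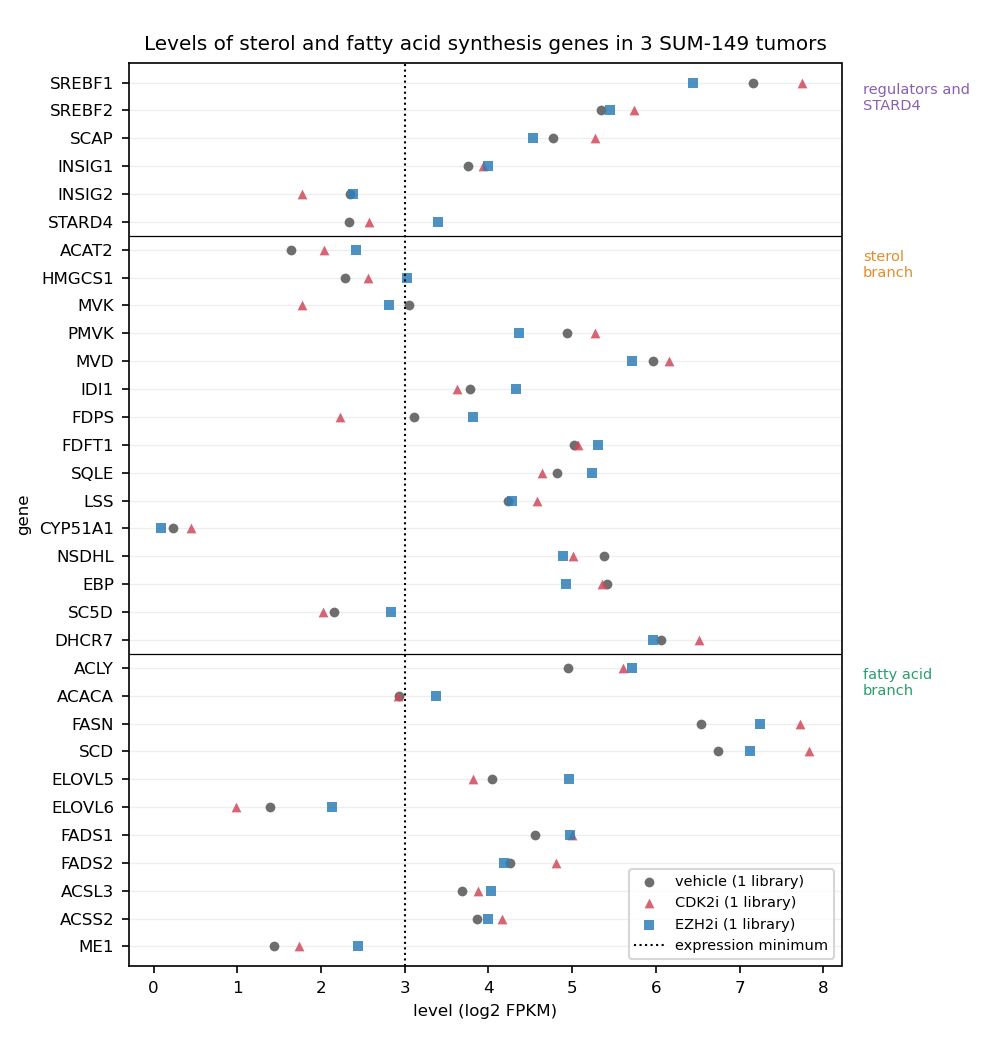
Level of each of the 32 genes (log2 FPKM) in the vehicle, CDK2i and EZH2i tumors, with 1 point per library and gene, grouped by role. The dotted line marks log2 FPKM 3, and SREBF1, SCD and FASN lie farthest to the right in each tumor.

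RefSeq promoter windows (GRCh38.p14, 250 bases before to 50 after an annotated start) were found for 28 of the 32 genes, 39 windows in all, and searched on both strands for 4 motifs of lipid genes. The core of the sterol regulatory element, CACNCCAC, was in 7 of the 39 windows, from ACACA, IDI1, INSIG1, SC5D, SCD and SREBF2, against 5.87% of all 35116 windows. The E-box CACGTG was in 6 of the 39 against 7.26% of all, CCAAT in 24 against 34.6%, and the GC box GGGCGG in 34 against 45.0%. Some windows of 1 gene overlap, so the counts are not independent, and a match of letters does not show binding. The 250 bases before the start are shown for SCD, which was more than 2-fold higher in CDK2i than in vehicle, and for SREBF1 and ELOVL5, which lay on opposite sides when the treated tumors were compared. Capitals mark matches to any of the 4 motifs on either strand, and no matches overlapped in these windows.
SCD (chr10:100346983-100347232, plus strand): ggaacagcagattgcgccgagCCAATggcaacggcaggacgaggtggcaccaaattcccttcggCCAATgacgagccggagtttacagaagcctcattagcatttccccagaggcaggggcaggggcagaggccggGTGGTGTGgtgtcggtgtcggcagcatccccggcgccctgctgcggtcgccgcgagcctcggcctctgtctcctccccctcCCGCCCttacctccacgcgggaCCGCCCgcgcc
SREBF1 (chr17:17836987-17837236, minus strand): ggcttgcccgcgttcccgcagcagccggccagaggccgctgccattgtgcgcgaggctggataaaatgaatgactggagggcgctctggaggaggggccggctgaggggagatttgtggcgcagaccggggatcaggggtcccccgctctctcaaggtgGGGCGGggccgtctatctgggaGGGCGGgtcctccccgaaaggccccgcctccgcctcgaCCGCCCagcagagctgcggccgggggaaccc
ELOVL5 (chr6:53348951-53349200, minus strand): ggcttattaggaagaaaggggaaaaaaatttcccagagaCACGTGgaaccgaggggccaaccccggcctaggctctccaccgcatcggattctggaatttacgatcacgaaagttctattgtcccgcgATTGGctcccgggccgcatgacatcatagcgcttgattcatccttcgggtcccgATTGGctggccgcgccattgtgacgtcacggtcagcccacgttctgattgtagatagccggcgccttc
The SCD window holds CCAAT at −229 and −186 from the start, the sterol element core at −114 on the opposite strand and GC boxes at −33 and −11. The SREBF1 window holds GC boxes at −91, −69 and −31 and no match to the other motifs. The ELOVL5 window holds the E-box at −211 and CCAAT on the opposite strand at −122 and −68.

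To ask how each gene stood in a treated tumor, its log2 FPKM in vehicle was subtracted. A gene was called when the fold was above 2 and the higher log2 FPKM of the pair above 3, which are the fold and expression limits of the study. Each difference carries a 95% interval for counting error alone, from the approximate number of fragments. Over the 11109 expressed genes the median difference was −0.11 in CDK2i and 0.19 in EZH2i, with the middle 90% of genes between −1.40 and 0.80 and between −0.96 and 1.23.

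In the CDK2i tumor the fatty acid enzymes FASN and SCD were more than 2-fold higher than in vehicle, and the mevalonate kinase gene MVK was more than 2-fold lower. Of the 23 genes that reached the minimum in this pair, these 2 were called higher and 1 lower, where 3.27% of all 6632 genes that reached it were called higher and 8.07% lower. So few genes were called that nothing is read from their number. Of all 32 genes, 21 were above their vehicle level and 11 below, with a median difference of 0.23. In the EZH2i tumor 1 of 26, STARD4, was called higher and none lower, against 8.93% and 4.42% of 7414 genes, with 22 genes above vehicle, 10 below and a median of 0.31. Set against the all-gene medians instead of 0, 23 of the 32 genes lay higher in CDK2i and 18 in EZH2i. Both comparisons share the vehicle library, so a value of that library that lies off moves both.

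**Figure D2:**
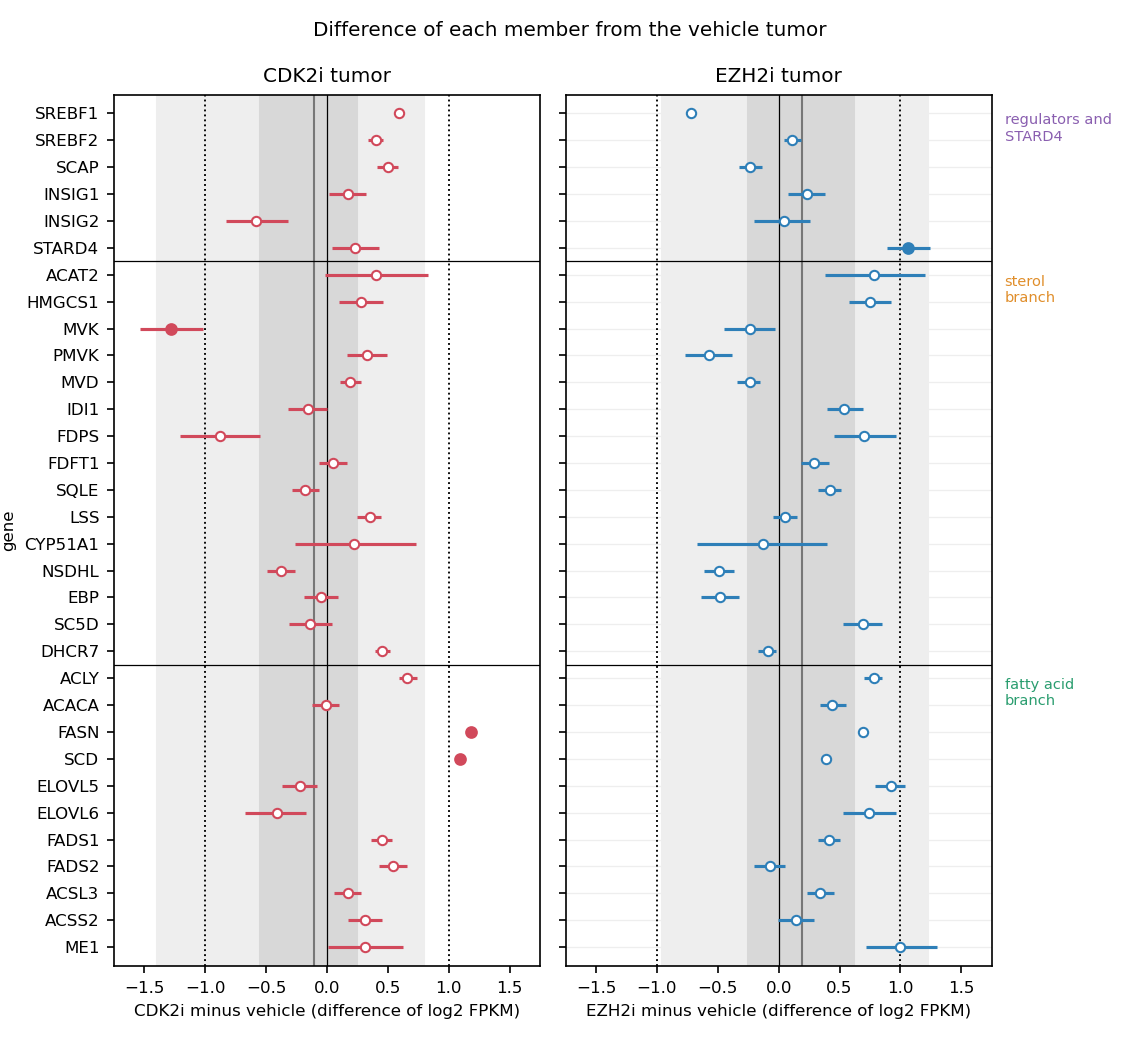
Difference of log2 FPKM from the vehicle tumor for each of the 32 genes in the CDK2i tumor (left) and the EZH2i tumor (right). Horizontal bars are 95% counting intervals, filled points are called genes, dotted lines mark 2-fold, and grey shading spans the middle 50% (dark) and 90% (light) of the 11109 expressed genes around their median (grey line). FASN and SCD lie right of the light band in CDK2i, and STARD4 lies inside it in EZH2i.

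Among the regulators, SREBF1 lay on opposite sides of vehicle in the treated tumors. SREBF1 (chromosome 17 of GRCh37, 17713713 to 17740316, minus strand) was at 143 FPKM in vehicle, 216 under CDK2i and 87.0 under EZH2i, so it was highest in CDK2i and lowest in EZH2i. Its difference from vehicle was 0.59 (95% counting interval 0.56 to 0.62) in CDK2i, above 90.6% of expressed genes, and −0.72 (−0.76 to −0.68) in EZH2i, above 8.39% of them. Neither passed 2-fold, and the signs were kept under all 5 other scalings and corrections tried, at 0.44 to 0.77 and −0.97 to −0.48. SREBF1 shares exonic bases with RAI1 on the opposite strand.

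SREBF2 was at 40.6 FPKM in vehicle, 53.6 under CDK2i and 43.8 under EZH2i, differences of 0.40 and 0.11. SCAP, the escort that carries SREBP to the Golgi, was at 27.3, 38.6 and 23.2, differences of 0.50 and −0.24. Both were highest in CDK2i, while in EZH2i the sign of SREBF2 turned to −0.14 when libraries were centred on the median gene, and that of SCAP reached 0.00 with equal sums. INSIG1, which retains SCAP and is itself a SREBP target, was at 13.5, 15.2 and 15.9 FPKM, differences of 0.17 and 0.23. Its relative INSIG2 was at 5.09, 3.41 and 5.21, a difference of −0.58 (−0.83 to −0.32) in CDK2i and of 0.04 (−0.20 to 0.26) in EZH2i, but under the minimum in all 3 tumors. The INSIG1 difference in EZH2i was −0.16 once the trend over GC content and length was removed, and that of INSIG2 −0.64. That trend has a constant, so the remaining sign is relative to genes of like GC content and length, not to vehicle.

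STARD4 (chromosome 5, 110831731 to 110848288, minus strand), which moves cholesterol between membranes and is a known SREBP2 target, was at 5.06 FPKM in vehicle, 5.94 under CDK2i and 10.6 under EZH2i. The EZH2i tumor alone was above the minimum. The difference was 0.23 (0.04 to 0.43) in CDK2i and 1.06 (0.89 to 1.24) in EZH2i, from 393 fragments in vehicle and 858 in EZH2i by the length of its main transcript. The call in EZH2i was lost at 0.93 with 1 FPKM added before the logarithm, at 0.82 with each library centred and at 0.28 with the trend over GC content and length removed.

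The fatty acid branch summed to 331 FPKM in vehicle, 607 under CDK2i and 477 under EZH2i. FASN and SCD together made up 200 of it in vehicle, 438 under CDK2i and 291 under EZH2i, 2.19 and 1.45 times the vehicle value. The other 9 genes summed to 130, 168 and 186 FPKM, 1.29 times vehicle in CDK2i and 1.43 times in EZH2i. By gene, 8 were above vehicle and 3 below in CDK2i, with a median of 0.31. In EZH2i 10 were above and 1 below, with a median of 0.44. Set against the all-gene medians, 9 of the 11 lay higher in each treated tumor. With the trend over GC content and length removed, 9 in CDK2i and 7 in EZH2i were above the fitted trend. The share of all genes above that trend was not computed, so nothing is read from these counts. The median in EZH2i was 0.03 with the trend over GC content and length removed and 0.19 with centred libraries, while that in CDK2i was between 0.16 and 0.52 under the alternatives.

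FASN (chromosome 17, 80036214 to 80056170, minus strand) was at 93.3 FPKM in vehicle, 211 under CDK2i and 151 under EZH2i. The CDK2i level was 2.26 times that in vehicle, a difference of 1.18 (1.15 to 1.20), above 97.9% of expressed genes. Over the scalings and corrections it ran from 1.01 to 1.36, at its lowest barely past 2-fold. In EZH2i the difference was 0.69 (0.66 to 0.72), with a range of 0.44 to 0.93 over the scalings and corrections. SCD (chromosome 10, 102106990 to 102124583, plus strand) was at 107, 228 and 140 FPKM, and its promoter is the only printed window with the sterol element core. Its difference was 1.09 (1.05 to 1.12) in CDK2i, above 97.6% of expressed genes, and 0.39 (0.35 to 0.43) in EZH2i. The call of SCD in CDK2i was lost at 0.94 with FPKM scaled to equal sums without ribosomal protein and mitochondrially encoded genes, and its sign in EZH2i turned, to −0.15, with the trend over GC content and length removed. SCD has a named pseudogene, SCDP1.

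The basal keratins above were higher along with FASN and SCD in the CDK2i tumor. In EZH2i, where FASN and SCD differed by 0.69 and 0.39, these keratins lay between −0.51 (KRT17) and 0.08 (KRT6A). The summed adipocyte markers, mostly FABP4 in vehicle and CDK2i, were lowest in EZH2i. CIDEC and PLIN4, at 0.0447 and 0.396 FPKM in EZH2i, were not. The part of either set of markers in the FASN and SCD values was not tested.

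ACLY, which makes cytosolic acetyl-CoA from citrate and so feeds both branches, was at 30.8 FPKM in vehicle, 48.9 under CDK2i and 52.8 under EZH2i. Its differences of 0.66 (0.59 to 0.74) and 0.78 (0.70 to 0.85) were under 2-fold, and their signs held under the alternatives, at 0.52 to 0.85 and 0.50 to 1.02. ME1, the cytosolic malic enzyme that supplies NADPH for fatty acid synthesis, was at 2.70, 3.35 and 5.42 FPKM. It was higher in EZH2i by 1.00 (0.72 to 1.30), right at 2-fold, but stayed under the minimum, with 151 fragments in vehicle. ELOVL5, which lengthens polyunsaturated fatty acids, was at 16.5, 14.1 and 31.1 FPKM, a difference of −0.22 (−0.37 to −0.08) in CDK2i and 0.92 (0.79 to 1.04) in EZH2i. With the trend over GC content and length removed, the EZH2i differences of ME1 and ELOVL5 came to 0.41 and 0.40. With equal sums of FPKM they were 1.24 and 1.16, and that of ELOVL5 was then past both limits.

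Among the other fatty acid genes, ELOVL6, which lengthens saturated chains, was on opposite sides of vehicle. It was at −0.41 (−0.67 to −0.17) in CDK2i and 0.74 (0.53 to 0.96) in EZH2i, both under the minimum. With the trend over GC content and length removed it came to −0.32 and −0.02, both below the fitted trend. ACACA, whose acetyl-CoA carboxylase commits carbon to fatty acids, differed by −0.01 in CDK2i and 0.44 in EZH2i. The desaturases FADS1 and FADS2 were at 0.45 and 0.54 in CDK2i and at 0.41 and −0.07 in EZH2i, and their genes share exonic bases. ACSL3 and ACSS2, which activate long-chain fatty acids and acetate, were at 0.17 and 0.31 in CDK2i and at 0.34 and 0.14 in EZH2i. With the trend removed, the EZH2i differences came to −0.15 for ACACA, 0.03 for FADS1, 0.01 for FADS2, −0.46 for ACSL3 and 0.07 for ACSS2, and that of ACACA in CDK2i to 0.06.

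The sterol branch as a whole lay close to vehicle in both treated tumors. Its 15 genes summed to 368 FPKM in vehicle, 393 under CDK2i and 356 under EZH2i, 1.07 and 0.967 times vehicle, and 8 were above and 7 below vehicle in each, with a median of 0.05 in both. The sign of these medians depended on the scaling, from −0.10 to 0.23 in CDK2i and from −0.20 to 0.29 in EZH2i. Set against the all-gene medians, 9 of the 15 lay higher in CDK2i and 7 in EZH2i. With the trend over GC content and length removed, 11 and 6 were above the fitted trend, with medians of 0.22 and −0.01. The shares of all genes above that trend were not computed. The single genes were spread on both sides, from −1.28 to 0.45 in CDK2i and from −0.57 to 0.78 in EZH2i.

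MVK (chromosome 12, 110011060 to 110035930, plus strand), which phosphorylates mevalonate, was at 8.26 FPKM in vehicle, 3.41 under CDK2i and 7.01 under EZH2i. The CDK2i level stood apart from the other tumors, with a difference from vehicle of −1.28 (−1.54 to −1.02), above only 6.26% of expressed genes, and of −1.42 to −1.07 under the alternatives. In EZH2i the difference was −0.24 (−0.45 to −0.03), with −0.49 to 0.00 under the alternatives. The values stand for 393 fragments in vehicle and 185 in CDK2i by transcript length, or 1251 and 588 by the length of all exons, and the vehicle level was just above the minimum. MVK shares exonic bases with MMAB on the opposite strand, so without knowledge of strand reads in the shared bases cannot be told apart.

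FDPS (chromosome 1, 155278539 to 155290457, plus strand), which makes farnesyl diphosphate and is the target of nitrogen-containing bisphosphonates, was at 8.62 FPKM in vehicle, 4.69 under CDK2i and 14.0 under EZH2i. It was below vehicle in CDK2i, with a difference of −0.88 (−1.21 to −0.55), and above it in EZH2i, with 0.70 (0.45 to 0.96), in neither past 2-fold. With equal sums without ribosomal protein and mitochondrially encoded genes the CDK2i difference was −1.02 and passed. FDPS has 8 named pseudogenes and shares exonic bases with RUSC1-AS1, and its vehicle level stands for 205 to 538 fragments, so its values are uncertain.

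ACAT2, the cytosolic thiolase that opens the pathway, was at 3.11 FPKM in vehicle, 4.09 under CDK2i and 5.35 under EZH2i, under the minimum in each and with 79 to 138 fragments in vehicle. HMGCS1, which makes HMG-CoA, was at 4.88, 5.92 and 8.19 FPKM and so passed the minimum only in EZH2i. Their differences in EZH2i were 0.78 (0.38 to 1.20) and 0.75 (0.58 to 0.92), and that of SC5D, a late desaturase at 4.46, 4.06 and 7.18 FPKM, was 0.69 (0.53 to 0.85). With the trend over GC content and length removed, ACAT2 stayed at 0.65 and the others came to −0.01 and −0.18. ACAT2 overlaps TCP1 and SOD2 on the opposite strand.

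For the 10 remaining sterol genes the differences in CDK2i ran from −0.38 for NSDHL, a sterol dehydrogenase, to 0.45 for DHCR7. In EZH2i they ran from −0.57 for PMVK, the kinase after MVK, to 0.54 for IDI1, the isopentenyl diphosphate isomerase. NSDHL and EBP, a sterol isomerase, were below vehicle in both, at −0.38 and −0.05 in CDK2i and at −0.49 and −0.48 in EZH2i, but EBP in CDK2i had a counting interval of −0.19 to 0.09 and came to 0.22 with the trend over GC content and length removed. PMVK was at 0.33 and IDI1 at −0.16 in CDK2i, and DHCR7 at −0.09 in EZH2i. With the same trend removed, PMVK came to −0.09, IDI1 to −0.01, SQLE to 0.07 and FDFT1 to 0.08 in EZH2i, and MVD turned from −0.24 to 0.23, while NSDHL stayed at −0.55. The squalene genes FDFT1 and SQLE, squalene synthase and epoxidase, differed by 0.05 and −0.18 in CDK2i and by 0.29 and 0.42 in EZH2i. LSS, which closes the sterol ring, was at 0.35 and 0.05, MVD at 0.19 and −0.24, and CYP51A1 at 0.22 (−0.26 to 0.73) and −0.13 (−0.67 to 0.40).

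The treated tumors were also set against each other directly, which uses no value of the vehicle library. Of the 25 genes that reached the minimum in this pair, FDPS and ELOVL5 were called higher in EZH2i than in CDK2i and SREBF1 lower, where 17.5% of all 7394 genes were called higher and 6.53% lower. FDPS was higher by 1.58 (1.28 to 1.89) and ELOVL5 (chromosome 6, 53132196 to 53213977, minus strand) by 1.14 (1.01 to 1.27), while SREBF1 was lower, at −1.31 (−1.35 to −1.27), above only 3.44% of expressed genes. FDPS stayed past 2-fold under the alternatives, at 1.15 to 1.76, and SREBF1 at −1.74 to −1.13, but ELOVL5 fell short at 0.71 with centred libraries and at 0.45 with the trend over GC content and length removed. MVK at 1.04 and ELOVL6 at 1.16 also passed 2-fold but not the minimum. In all, 17 of the 32 genes were higher in EZH2i and 15 lower, with a median of 0.09 against 0.35 over expressed genes, and only 13 lay above that all-gene median. With the trend over GC content and length removed, 6 were above the fitted trend and 26 below, with a median of −0.37 from it. The matching shares of all genes were not computed. SCD at −0.70, FASN at −0.48, PMVK at −0.90 and SCAP at −0.74 were lower in EZH2i without passing 2-fold. With libraries centred on the median gene SCD at −1.13, PMVK at −1.33, SCAP at −1.17 and FADS2, from −0.62, at −1.05 passed it. SCD also did with the trend removed, at −1.39. In the other direction STARD4, from 0.83, passed 2-fold at 1.01 with equal sums without ribosomal protein and mitochondrially encoded genes.

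**Figure D3:**
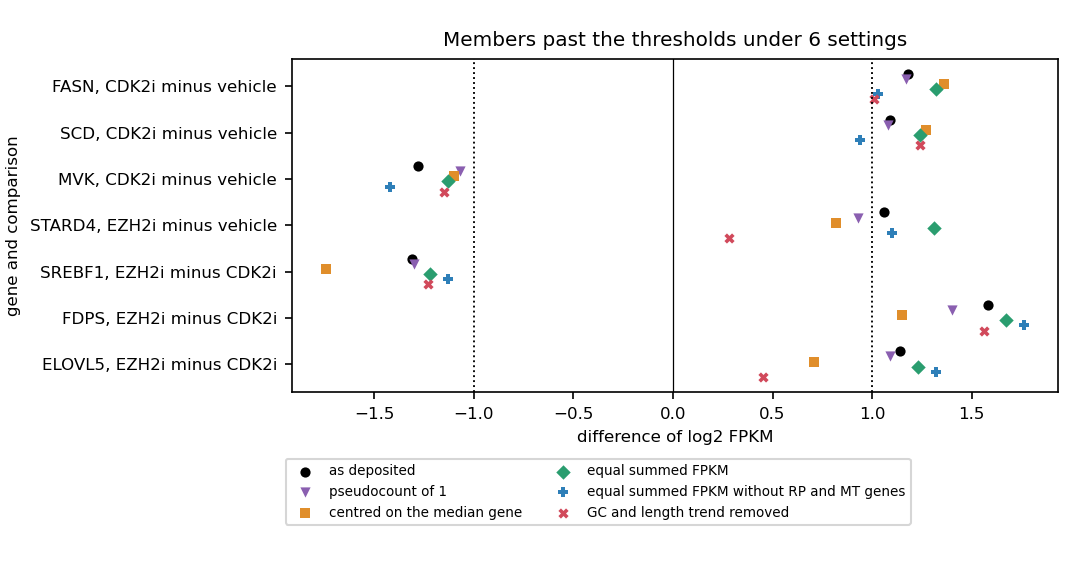
Difference of log2 FPKM of each called gene in its comparison, as deposited and under 5 alternatives, with dotted lines at 2-fold. FASN, MVK, SREBF1 and FDPS stay past 2-fold at every setting, while SCD, STARD4 and ELOVL5 fall short at 1 or more of them.

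In the EZH2i tumor the differences followed the base composition of the transcripts, among the 32 genes as among all genes. Across 10199 expressed genes with annotated GC content (genes are not independent replicates, and the values share 1 pair of libraries), the Spearman correlation of GC content with the difference from vehicle was −0.581 in EZH2i and 0.0351 in CDK2i. Across the 32 genes it was −0.585 in EZH2i and 0.402 in CDK2i. Of the 18 genes with a GC content under 50%, 16 were above vehicle in EZH2i, with a median of 0.43, and of the 14 others 6 were, with a median of −0.08, close to the medians of 0.53 and −0.12 over all genes split in the same way. STARD4, the gene called higher in EZH2i, had the lowest GC content of the 32, at 34.4%. FASN, at 65.3%, had an EZH2i difference of 0.67 after the trend was removed. With the trend removed, the median of the 32 genes was −0.01 in EZH2i and 0.38 in CDK2i. Of the 32 genes, 14 in EZH2i and 25 in CDK2i were above 0, which there is the fitted trend and not vehicle. The fit follows the mean, so genes need not divide evenly around it. The share of all genes above it was not computed, so nothing is read from these counts. The source of the trend was not tested.

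**Figure D4:**
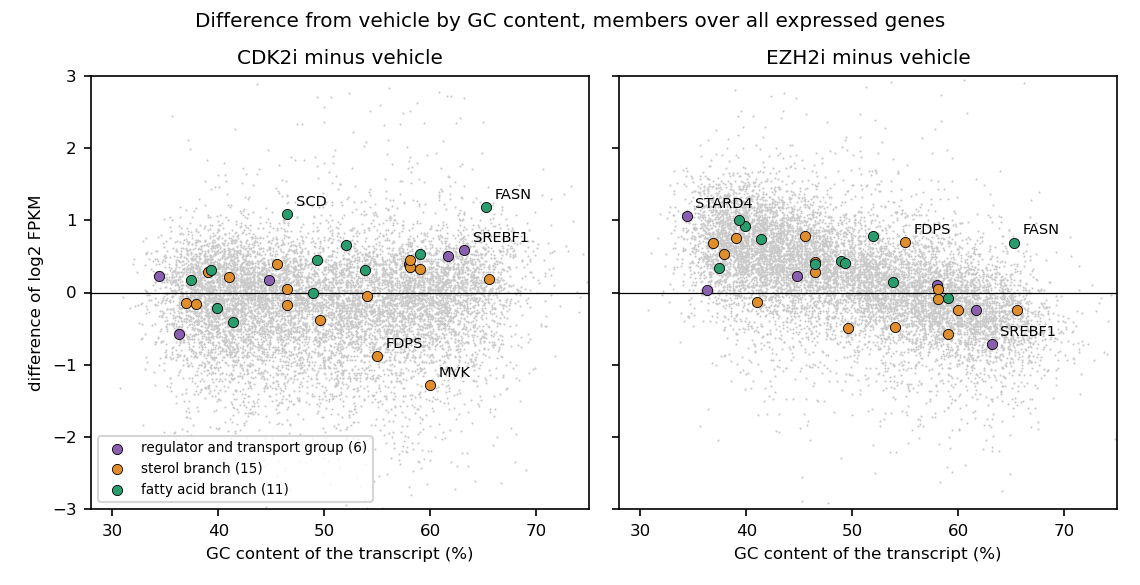
Difference of log2 FPKM from the vehicle tumor against GC content of the transcript in the CDK2i tumor (left) and the EZH2i tumor (right), for the 32 genes (colored by group) over 10199 expressed genes (grey, of which 31 and 23 lie outside the axes). The grey cloud and the colored points slope down to the right in EZH2i, with Spearman correlations of −0.581 and −0.585.

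Other genes of these pathways, from lists by role, were described in the same way, and the shares of all genes called, 3.27% higher and 8.07% lower in CDK2i and 8.93% and 4.42% in EZH2i, are the background of these counts too. Of 5 other sterol synthesis genes 4 reached the minimum in each pair with vehicle. LBR was called higher in EZH2i and TM7SF2 lower, and none of the 5 was called in CDK2i. TM7SF2 and LBR both reduce the same double bond of the sterol ring. They went opposite ways in EZH2i, with TM7SF2 at 9.65, 12.2 and 4.69 FPKM (−1.04 in EZH2i) and LBR at 16.0, 17.9 and 41.0 (1.35), though with the trend removed these came to −0.60 and 0.69.

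Of 11 genes of sterol uptake, efflux and storage 7 reached the minimum and so could be called, and none was in either treated tumor. Of 10 genes of SREBP processing and turnover 8 reached the minimum in CDK2i and 9 in EZH2i. RNF145, a ubiquitin ligase that acts on SCAP, was called lower in CDK2i at −1.02, and none of the 10 was called in EZH2i. With the trend removed RNF145 was at −0.83 and so not past 2-fold. Of 15 other fatty acid synthesis genes 6 reached the minimum in CDK2i and 7 in EZH2i. ACSL4, which activates arachidonic acid, was called higher in EZH2i, and none of the 15 was called in CDK2i. ACSL4 was at 2.44 FPKM in vehicle, 5.01 under CDK2i and 10.5 under EZH2i (2.11, or 1.33 with the trend removed). In CDK2i it was higher by 1.04, past 2-fold but under the minimum. Between the treated tumors LBR and ACSL4 were called higher in EZH2i, at 1.19 and 1.07, and TM7SF2 lower, at −1.38, but with the trend removed only TM7SF2, at −1.05, stayed past 2-fold, with LBR at 0.39 and ACSL4 at 0.20. The median differences in CDK2i and EZH2i were 0.12 and 0.37 for these 5 sterol synthesis genes, 0.08 and 0.37 for SREBP processing and turnover, 0.01 and −0.06 for uptake, efflux and storage, and 0.13 and 0.58 for the other fatty acid synthesis genes. With the trend removed, the CDK2i medians came to 0.30, 0.24, 0.20 and 0.38 in the same order. The EZH2i medians came to −0.04, 0.01, −0.17 and 0.15. Of the 15 fatty acid oxidation genes 9 reached the minimum and none was called in either treated tumor. Their median differences were 0.27 in CDK2i and 0.08 in EZH2i, or 0.44 and −0.12 with the trend removed.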

How the data were processed

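RNAseq was performed on total RNA from 3 SUM-149 xenograft tumors, 1 per group. The authors deposited log2 FPKM values on GRCh37 (hg19), where −9 stands for an FPKM of 0, and the processing notes name CASAVA and STAR. Versions, the counting tool, gene lengths and the treatment of mouse reads are not given in the sources used here. Depth was recovered from the step of 1 fragment in low values (tolerance 0.1%). Fragments of each gene were approximated from FPKM, depth and GENCODE 44 lengths. Exact 95% binomial intervals of their ratio used the length of the main transcript and cover counting error only. Depth was recovered with the length of all exons. Where that length is greater, as for MVK, it gives more fragments, so the intervals can be too wide by an amount that differs between genes. The 11109 expressed genes averaged over log2 FPKM 1 with none of their values at −9. Calls needed a fold above 2 and a higher log2 FPKM above 3. The p-value limit of the study was left out, since 1 library per group leaves no residual error.

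Alternatives were a 1.5-fold limit, no expression minimum, a pseudocount of 1 FPKM, libraries centred on the median expressed gene, scaling to equal sums of FPKM over all genes or over those that encode neither ribosomal proteins nor mitochondrial transcripts, and removal of a trend over GC content and log length (polynomials of degree 3). GC content and length came from annotated transcripts, which matched 92.6% of expressed genes and all 32 genes. The trend has a constant and was fitted over expressed genes other than ribosomal protein genes, so its removal also recentres the differences. The code for trend removal and calls was checked on simulated data with changes well past 2-fold and a straight trend over GC content. That check does not cover genes near the 2-fold limit. Promoters came from RefSeq (GRCh38.p14). Values are printed tumor by tumor for the regulators, STARD4, every gene called in a comparison and the 5 genes of each branch with the largest difference from vehicle. Genes of other lists are named where called, and some genes of these pathways are not reported here and were left out of the lists. The 32 genes and all lists were chosen with earlier results of these data known. Python 3.11.15, numpy 2.4.6, pandas 2.3.3 and scipy 1.17.1 were used.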

Additional observations from a re-analysis of the deposited data

How the results depend on the processing

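No paired analysis was possible because each group held 1 library and the labels pair no samples, and no replicate could be left out. With a 1.5-fold limit, the called genes went from 1 to 2 in the sterol branch in CDK2i, from 0 to 2 in the sterol branch in EZH2i and from 0 to 3 in the fatty acid branch in EZH2i. That last count was 1 with no expression minimum and 2 with equal summed FPKM. With equal sums without ribosomal protein and mitochondrially encoded genes, the CDK2i counts were 2 in the sterol branch (from 1) and 1 in the fatty acid branch (from 2).

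The median difference of the sterol branch, 0.05 in CDK2i, was 0.23 centred on the median gene, 0.20 with equal sums, −0.10 with sums made equal without those genes and 0.22 with the trend removed. In EZH2i it went from 0.05 to −0.20 centred and 0.29 with equal sums, and between the treated tumors from 0.25 to −0.19 centred, 0.43 with sums made equal without those genes and −0.21 with the trend removed. The median of the fatty acid branch, 0.31 in CDK2i, was 0.49, 0.46, 0.16 and 0.52 in the same order of 4 settings. In EZH2i it went from 0.44 to 0.19 centred, 0.68 with equal sums and 0.03 with the trend removed, and between the treated tumors from 0.11 to −0.32 centred, 0.29 with sums made equal without those genes and −0.35 with the trend removed. The cause of these shifts was not tested. The other 32 counts and medians moved by no more than 1.5 times or the median counting half-width (0.12 to 0.13). The alternatives for single genes were added after seeing the data, and 29 of 35 values kept their call. Counting error limits most the genes of few fragments, CYP51A1, ACAT2, ME1 and FDPS.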
